A study of Komagataella phaffii with 26 samples.

Results

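Exponentially growing cultures of the methylotrophic yeast Komagataella phaffii (formerly Pichia pastoris), strain X-33, were compared on glucose and on glycerol before any alkaline stress, as part of a study of the response of this yeast to alkaline pH by RNA sequencing. The comparison took the 2 glucose libraries and the 4 glycerol libraries of time zero, 6 of the 26 libraries of the series. All 6 came from cells resuspended at pH 5.5 in fresh buffered YP medium with the carbon source on which they had grown, and collected at once. The glucose cultures belonged to a course later shifted to pH 8.0, and the glycerol cultures to a course later shifted to pH 8.0 (2 libraries) and a course later shifted to pH 8.2 (2 libraries). The strain is recorded as wild type in every group. Within each group the libraries are separate biological replicates according to the study's methods. The p-values rest on the spread between replicates within a group, and the spread between courses is not part of it. Levels are RPKM, mapped reads scaled to the length of the gene model and to the mapped reads of the library, and the values of a gene on glycerol are given in the order pH 8.0 course, replicates 1 and 2, then pH 8.2 course, replicates 1 and 2. Of 5040 genes in the table, 5034 reached 1 RPKM in at least 2 libraries and were tested.

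Glucose enters the cell through hexose transporters, is phosphorylated by a hexokinase or glucokinase and runs down glycolysis to pyruvate, which is either oxidised in mitochondria or decarboxylated to acetaldehyde and reduced to ethanol. Glycerol enters in the middle of the same pathway, where glycerol kinase and a glycerol-3-phosphate dehydrogenase turn it into a triose phosphate. Sugars must then be made by gluconeogenesis. Of the enzymes particular to gluconeogenesis, fructose-1,6-bisphosphatase acts above this point of entry and phosphoenolpyruvate carboxykinase below it. In yeasts, glucose commonly represses genes for gluconeogenesis and for the use of other carbon sources, and K. phaffii is known for using glycerol and methanol well and for a mostly respiratory metabolism.

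The RPKM values were whole multiples of what 1 read is worth, which gave about 16800000 to 19500000 reads in a library. These depths were derived from the values, and all lie below the average number of reads per sample that the paper states. In each library 5 genes were at 0. Pearson correlations of log2(RPKM + 1) were 0.996 to 0.997 between replicates of a group, 0.983 to 0.988 between glucose and the glycerol libraries of the pH 8.2 course, 0.977 to 0.981 between glucose and those of the pH 8.0 course, and 0.987 to 0.989 between both glycerol groups. Glucose replicate 2 stood farther from glycerol than replicate 1 in 35 of the 47 genes called higher and in 12 of the 16 called lower. The library codes of the glucose course and of the glycerol pH 8.2 course begin with the same letter and those of the glycerol pH 8.0 course with another, which the sample records do not explain. Against the glycerol pH 8.2 course alone, whose codes share the letter of the glucose course, 48 genes were called higher and 11 lower, 40 and 11 of them among those called against both.

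The difference of each gene was tested on log2(RPKM + 1) with limma, as glucose minus the mean of both glycerol groups, and a called gene had an adjusted p under 0.05, a p under 0.01 before adjustment and a log2 difference of 1 or more in size. Glucose cultures had 47 genes called higher (0.934% of the genes tested) and 16 called lower (0.318%). Of the 47, 7 were at least 4-fold higher, and of the 16, 1 was at least 4-fold lower. Without the 2-fold threshold, the adjusted p passed 475 genes as higher (9.44%) and 630 as lower (12.5%), and with median-ratio scaling this split turned to 578 higher and 508 lower. The median of all genes was -0.03. In all 63 called genes both glucose libraries lay outside the range of the 4 glycerol libraries, as they did above that range in 755 genes (15%) and below it in 1179 (23.4%) of all genes tested. Between the glycerol groups themselves, 8 genes were called (0.159%), none of them among the 63, and 832 passed the adjusted p alone (16.5%). The genes at least 2-fold apart between carbon sources were thus several times as many as between glycerol groups. The counts at the adjusted p alone set 4 glycerol libraries beside 2. With 2 libraries a side, glucose passed 235 genes as higher and 184 as lower against the glycerol pH 8.2 course, beside the 832 between glycerol groups. Against the pH 8.0 course it passed 766 and 943, so these counts did not set carbon source apart from course.

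Gene names and descriptions were available for the genes of a second table of the authors, which the study chose for their response to pH in these same samples. It covers 15.3% of the genes tested but 57 of the 63 called genes, and the gene lists used below could draw on its entries only. Of all genes tested, 9.44% passed the adjusted p as higher and 12.5% as lower, the shares to set beside the list counts below. Among the 47 genes called higher, 15 are described as hypothetical proteins and 4 carry no description, and among the 16 called lower these numbers are 1 and 2.

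**Figure D1:**
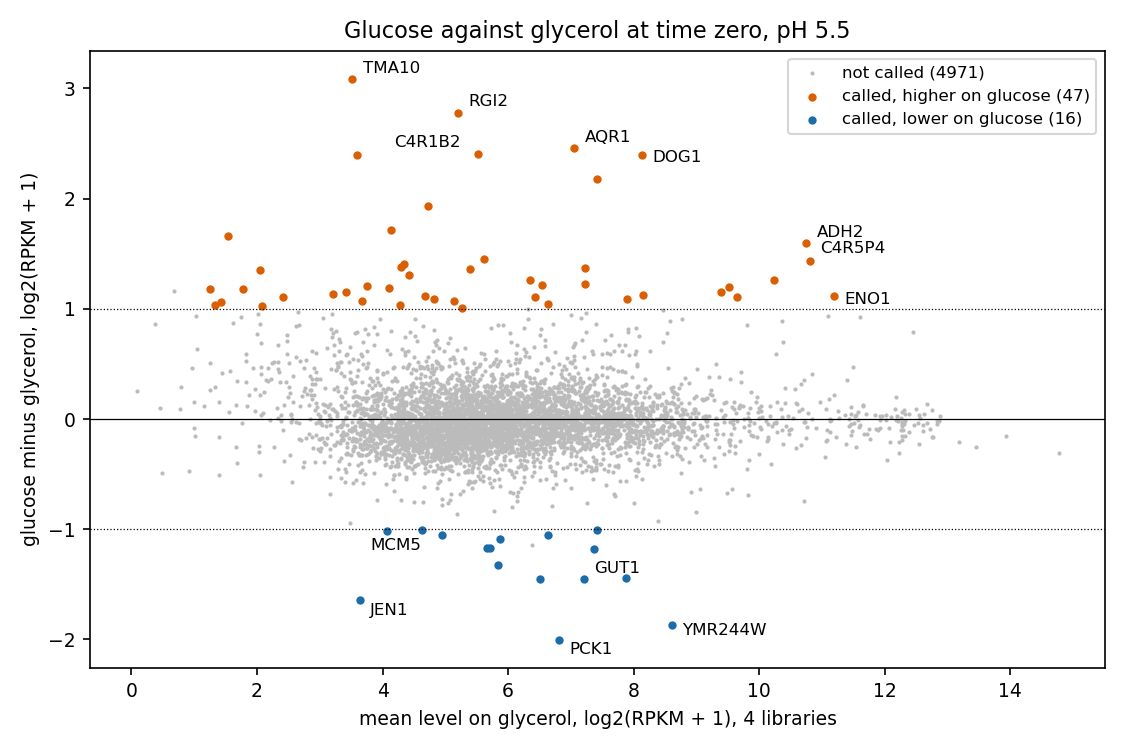
Each point is 1 of the 5034 genes tested: the x axis gives its mean level in the 4 glycerol libraries as log2(RPKM + 1) and the y axis the difference, glucose minus glycerol, on the same scale. Orange points are the 47 genes called higher on glucose, blue points the 16 called lower, and dotted lines mark a log2 difference of 1 in either direction; PCK1, at -2.003, is the lowest called gene and TMA10, at 3.09, the highest.

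Most of the listed genes of glycolysis were higher on glucose. The lists held no gene for glyceraldehyde-3-phosphate dehydrogenase or pyruvate kinase, so these steps were not covered. Of 13 genes in the lists of upper and lower glycolysis, 11 passed the test as higher and 1 as lower, with a median log2 difference of 1.09 beside -0.03 for all genes; 10 passed as higher without glucose replicate 2, and 11 against either glycerol group alone. Summed over the 13 genes, the levels made up 1.97 and 2.52% of all RPKM in the glucose libraries, against 1.13, 1.27, 0.85 and 0.926% in the glycerol libraries. The ranges of the carbon sources did not overlap, and within glycerol the pH 8.2 course was the lower group.

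In the upper part of the pathway, GLK1, a gene named after glucokinase, which phosphorylates glucose, but described only as needed for the induction of other genes, had 1463 and 1919 RPKM on glucose, against 742, 875, 605.8 and 727 RPKM on glycerol. PGI1, glucose-6-phosphate isomerase, had 1460.5 and 1799.9 RPKM on glucose, against 1014, 1086, 722 and 811 RPKM on glycerol. On the log2 scale GLK1 was higher by 1.19 ± 0.10 (adjusted p = 3.6e-07) and PGI1 by 0.85 ± 0.09 (adjusted p = 4.5e-06), so that PGI1 passed the test without reaching 2-fold. PFK1 and PFK2 encode the alpha and beta subunits of phosphofructokinase, the enzyme that commits sugar phosphate to glycolysis, and C4R7H4 a gamma subunit. PFK1 had 443 and 577 RPKM on glucose, against 266, 297, 187 and 217 RPKM on glycerol. PFK2 had 303 and 390.5 RPKM on glucose, against 251, 267, 180.0 and 209.6 RPKM on glycerol. C4R7H4 had 203 and 277 RPKM on glucose, against 137, 144, 133 and 165 RPKM on glycerol. All 3 subunits passed as higher, by 1.09 for PFK1, 0.61 for PFK2 and 0.71 for C4R7H4 on the log2 scale, but C4R7H4 no longer passed without glucose replicate 2 (adjusted p = 0.1). The difference between these subunits was not tested.

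The list held a pair of fructose-1,6-bisphosphate aldolase genes, which split the hexose phosphate into trioses, and they stood far apart. FBA1 had 3686 and 4729 RPKM on glucose, against 2538, 2729.5, 1712 and 1920.1 RPKM on glycerol. C4QWS2 had 12.1 and 12.6 RPKM on glucose, against 12.995, 13.5, 11.1 and 10.6 RPKM on glycerol. FBA1 was higher by 0.93 ± 0.14 (adjusted p = 1.3e-04) on the log2 scale, whereas the low C4QWS2 did not pass the test (log2 difference 0.04, adjusted p = 0.86), and its groups overlapped. TPI1, triose phosphate isomerase, the point at which glycerol carbon joins the pathway, had 1283 and 1744 RPKM on glucose, against 707, 697, 620.2 and 661 RPKM on glycerol (log2 difference 1.16 ± 0.13, adjusted p = 9.6e-06). The only member that fell was PFK26, a gene named after 6-phosphofructo-2-kinase, which makes the activator of phosphofructokinase: it had 8.72 and 7.87 RPKM on glucose, against 15.955, 10.9, 10.6 and 10.4 RPKM on glycerol, a log2 difference of -0.46 (adjusted p = 0.02). It did not pass without glucose replicate 2 (adjusted p = 0.2) or without replicate 1 of the glycerol pH 8.0 course (adjusted p = 0.08), its highest library.

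All 4 genes in the list of lower glycolysis were called higher. PGK1, phosphoglycerate kinase, had 2586 and 3245 RPKM on glucose, against 1262, 1467, 1036 and 1116 RPKM on glycerol. ENO1, enolase, had 4447 and 5858 RPKM on glucose, against 2719, 2971, 1888 and 1994 RPKM on glycerol. The log2 differences were 1.26 for PGK1 and 1.12 for ENO1, and in both the glycerol libraries of the pH 8.2 course were lower than those of the pH 8.0 course. A pair of genes described as tetrameric phosphoglycerate mutase, both named GPM1 in the authors' table, differed widely in level on either carbon source yet shared a direction. The abundant copy, C4R5P4, had 4302 and 5431 RPKM on glucose, against 1618, 1753, 1906 and 1905 RPKM on glycerol. The other copy, C4R5A6, had 157 and 217 RPKM on glucose, against 83.8, 85.2, 81.4 and 90.3 RPKM on glycerol. C4R5P4 was higher by 1.43 ± 0.14 (adjusted p = 1.8e-06) and C4R5A6 by 1.11 ± 0.10 (adjusted p = 7.6e-07) on the log2 scale.

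**Figure D2:**
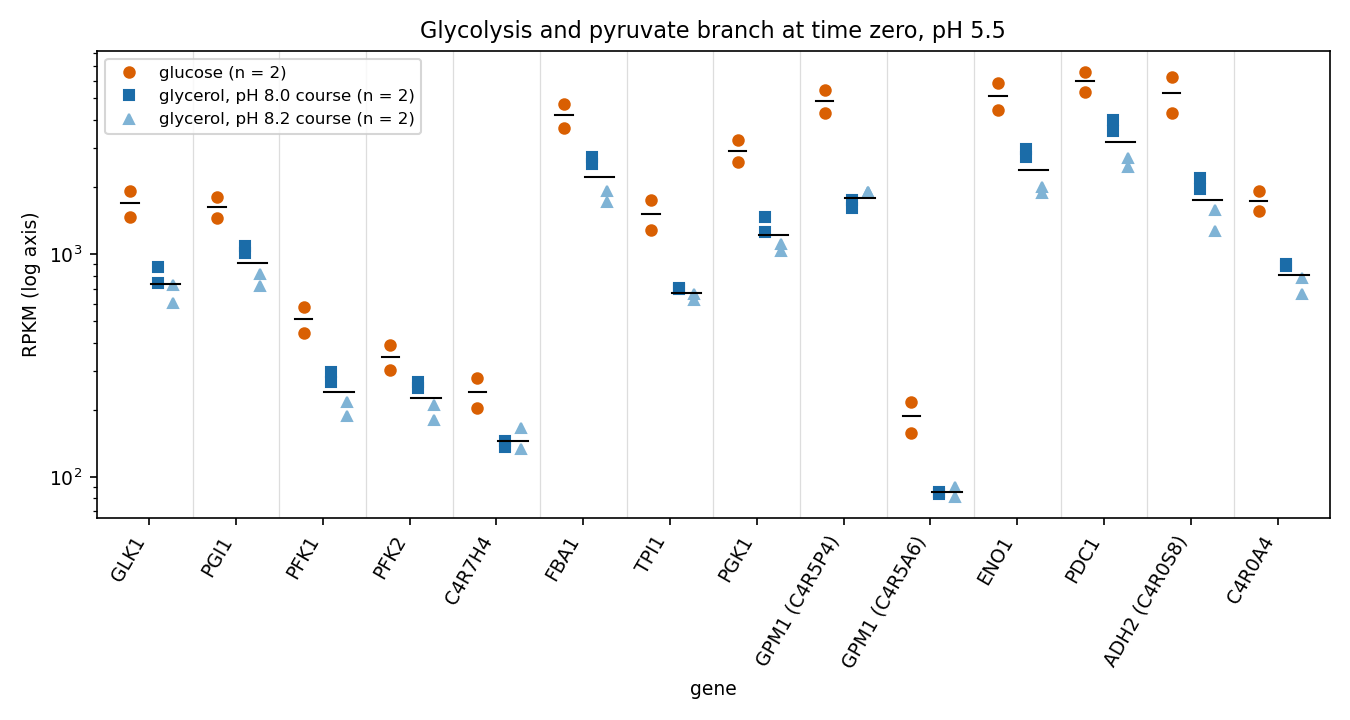
Levels of the 14 listed genes of glycolysis and the pyruvate branch that passed as higher, in the 6 libraries of time zero. They are given as RPKM on a log axis, with the genes in pathway order along the x axis. Listed members that did not pass as higher, among them C4QWS2, PFK26 and PYC2, are not shown. Points are libraries (orange circles glucose, dark blue squares glycerol of the pH 8.0 course, light blue triangles glycerol of the pH 8.2 course) and black lines the means of the 2 glucose and the 4 glycerol libraries; in every gene shown both glucose points lie above all glycerol points.

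Of 9 genes of the pyruvate branch and fermentation, 3 passed the test, all as higher, and they were the most abundant of the list. PDC1, pyruvate decarboxylase, which makes acetaldehyde, had 5359.6 and 6576 RPKM on glucose, against 3562, 3999.5, 2458 and 2696 RPKM on glycerol (log2 difference 0.93 ± 0.12, adjusted p = 3.8e-05), just short of 2-fold. C4R0S8, an alcohol dehydrogenase gene named ADH2 in the authors' table and described there as the mitochondrial isozyme III, had 4301 and 6261 RPKM on glucose, against 1966, 2196, 1270.0 and 1584 RPKM on glycerol (log2 difference 1.60 ± 0.15, adjusted p = 5.7e-07). Both genes, whose products are enzymes of the route from pyruvate to ethanol, were already far above the median level of all genes on glycerol, 51.9 RPKM. C4R0A4, which encodes an alcohol dehydrogenase that also acts as glutathione-dependent formaldehyde dehydrogenase in methanol use, had 1569 and 1913 RPKM on glucose, against 885, 899.6, 660.3 and 785 RPKM on glycerol (log2 difference 1.11 ± 0.16, adjusted p = 5.7e-05). Of the members that did not pass, PYC2, pyruvate carboxylase, had 181 and 163 RPKM on glucose, against 189, 206, 175 and 187 RPKM on glycerol, and the NADPH-dependent alcohol dehydrogenases ADH6 and C4R3A2 had log2 differences of -0.02 and 0.40 (adjusted p = 0.9 and 0.49).

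Of 4 genes of gluconeogenesis and the glyoxylate cycle, 1 passed as lower and 1 as higher. PCK1, phosphoenolpyruvate carboxykinase, which acts in gluconeogenesis below the triose phosphates, was the gene with the largest decrease. It had 30.1 and 24.3 RPKM on glucose, against 78.6, 85.3, 207 and 111 RPKM on glycerol (log2 difference -2.003 ± 0.25, adjusted p = 2.2e-05). The glycerol pH 8.2 course was above the pH 8.0 course. FBP1, fructose-1,6-bisphosphatase, the other key enzyme of gluconeogenesis, had 163 and 137 RPKM on glucose, against 225, 216, 344 and 253 RPKM on glycerol. Both glucose libraries were below all glycerol libraries for FBP1, as for PCK1. However, FBP1 did not pass the test (log2 difference -0.77 ± 0.39, adjusted p = 0.17), where the spread is estimated over the libraries of all times. MLS1, malate synthase of the glyoxylate cycle, had a log2 difference of -0.11 (adjusted p = 0.68). The mitochondrial malic enzyme MAE1, which turns malate into pyruvate, was higher, with 586 and 676 RPKM on glucose, against 359.8, 387, 352 and 371 RPKM on glycerol (log2 difference 0.78 ± 0.13, adjusted p = 3.7e-04).

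Among 5 genes of glycerol uptake and use, 4 passed as higher on glucose and 1 as lower. GUT1, glycerol kinase, the first enzyme of glycerol use, had 59.9 and 47.2 RPKM on glucose, against 116, 125, 182 and 177 RPKM on glycerol (log2 difference -1.45 ± 0.19, adjusted p = 3.0e-05). The genes described as glycerol proton symporters of the plasma membrane stood on the other side. C4R6H9 had 44.1 and 40.2 RPKM on glucose, against 23.1, 24.8, 21.8 and 18.5 RPKM on glycerol. C4R6F4 had 45.5 and 42.0 RPKM on glucose, against 22.7, 25.2, 25.4 and 22.4 RPKM on glycerol. The third, C4QVV9, had 15.1 and 12.7 RPKM on glucose, against 8.61, 8.55, 7.40 and 8.81 RPKM on glycerol. All 3 were higher in both glucose libraries than in any glycerol library, by 0.91, 0.84 and 0.67 on the log2 scale (adjusted p = 1.9e-06, 1.6e-04 and 0.0063), and they passed without glucose replicate 2 as well, whereas C4QVV9 did not pass without glucose replicate 1 (adjusted p = 0.084). In Saccharomyces cerevisiae such symporters (Stl1) import glycerol and are inactivated by glucose. GPD1, the NAD-dependent glycerol-3-phosphate dehydrogenase, which in S. cerevisiae makes glycerol from sugar, had 189 and 292 RPKM on glucose, against 164, 202, 175 and 175 RPKM on glycerol; its groups overlapped, and its difference of 0.40 (adjusted p = 0.029) rested on glucose replicate 2, without which it was 0.08 (adjusted p = 0.74).

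JEN1, the lactate transporter, was the single gene of 5 for lactate, acetate and other monocarboxylates to pass, as lower. It had 3.92 and 2.23 RPKM on glucose, against 6.84, 8.49, 20.8 and 13.9 RPKM on glycerol (log2 difference -1.64 ± 0.40, adjusted p = 0.0066), and it lost the call against the glycerol pH 8.0 course alone (log2 difference -1.11, adjusted p = 0.069) and without glucose replicate 2 (-1.34, adjusted p = 0.13). CYB2, which oxidises lactate in mitochondria, had 102 and 99.3 RPKM on glucose, against 113, 108, 107 and 119 RPKM on glycerol, a difference that did not pass (adjusted p = 0.4). In the list of the tricarboxylic acid cycle, 3 of 9 genes passed as lower and 0 as higher, and the median was -0.22. The 3 include IDP2, the only called member, whose product is cytosolic and so outside the mitochondrial cycle. IDP2, the cytosolic NADP-specific isocitrate dehydrogenase, a source of NADPH, had 27.7 and 17.046 RPKM on glucose, against 45.0, 49.4, 76.3 and 57.7 RPKM on glycerol (log2 difference -1.32 ± 0.32, adjusted p = 0.0066), and did not pass without glucose replicate 2 (adjusted p = 0.16). KGD2, a subunit of alpha-ketoglutarate dehydrogenase, had 532 and 451 RPKM on glucose, against 761, 785, 774 and 724 RPKM on glycerol (log2 difference -0.63 ± 0.10, adjusted p = 1.8e-04). The abundant ACO1, aconitase, had 1243 and 1046 RPKM on glucose, against 1341, 1474, 1300.2 and 1225 RPKM on glycerol, and SDH2 and SDH1, subunits of succinate dehydrogenase, had log2 differences of -0.19 and -0.32, none past the test. MDH3, malate dehydrogenase, was lower by a log2 difference of -0.30 (adjusted p = 0.02) with overlapping groups, and did not pass without glucose replicate 2 (adjusted p = 0.3).

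Of 8 respiratory chain genes 1 passed, CYT1, cytochrome c1, lower at -0.29 (adjusted p = 0.023). That count is no more than the 12.5% of all genes that passed as lower, and CYT1 did not pass without glucose replicate 2. CYC1, cytochrome c, the most abundant member, had 4327 and 3744 RPKM on glucose, against 2470.2, 2393, 3534 and 3377 RPKM on glycerol and did not pass (adjusted p = 0.14). Of 7 genes of glucose uptake and sensing none passed at the adjusted p. The most abundant of them, C4QYV2, described as a high-affinity glucose transporter, had 1874 and 2182 RPKM on glucose, against 1472, 1597, 1437 and 2073 RPKM on glycerol (log2 difference 0.31, adjusted p = 0.081), with glucose replicate 1 inside the range of glycerol, and MTH1, a negative regulator of glucose sensing, had a log2 difference of -0.02. Among 4 methanol genes only C4R0A4, given above, passed. AOX1, alcohol oxidase, the first enzyme of methanol use, was low everywhere, with 3.92 and 3.96 RPKM on glucose, against 5.14, 5.47, 5.41 and 6.70 RPKM on glycerol (adjusted p = 0.1). Of 3 storage carbohydrate genes, SGA1, a glucoamylase of glycogen breakdown, was called lower, with 11.7 and 11.1 RPKM on glucose, against 18.9, 23.6, 21.4 and 34.0 RPKM on glycerol (log2 difference -1.003 ± 0.19, adjusted p = 9.0e-04).

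Among 11 genes of peroxisomes and fatty acid oxidation, 1 passed as higher and 2 as lower, where 9.44 and 12.5% of all genes did. A pair of genes carries the same description, peroxisomal 2,4-dienoyl-CoA reductase, an auxiliary enzyme in the oxidation of unsaturated fatty acids. C4R343 had 77.0 and 95.6 RPKM on glucose, against 228, 227, 192 and 307 RPKM on glycerol (log2 difference -1.44 ± 0.19, adjusted p = 3.0e-05). SPS19 had 19.9 and 18.5 RPKM on glucose, against 7.83, 11.9, 12.9 and 11.009 RPKM on glycerol (log2 difference 0.78 ± 0.22, adjusted p = 0.018). They moved in opposite directions, with no overlap of the groups in either gene, and SPS19 did not pass without glucose replicate 2 (adjusted p = 0.1). C4R0R1, peroxin 20, was lower at -0.74 (adjusted p = 2.8e-04).

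**Figure D3:**
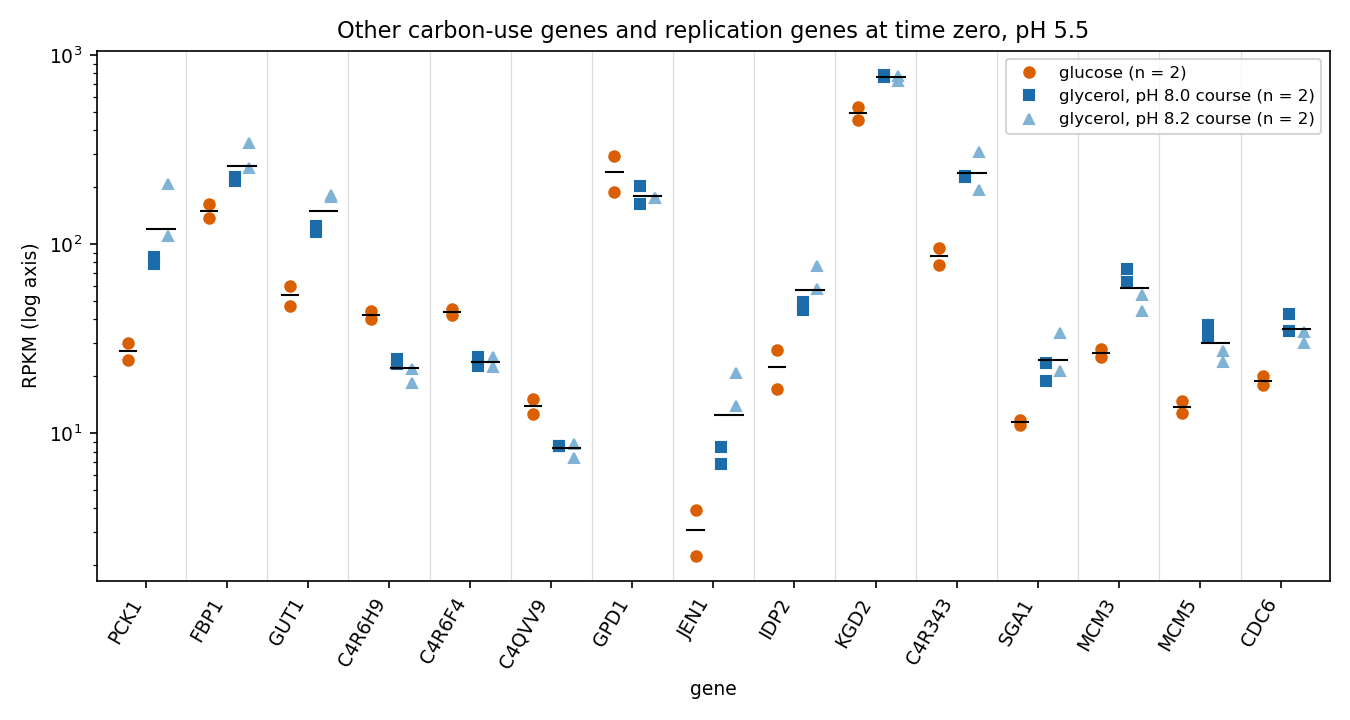
Levels of 15 genes of gluconeogenesis, glycerol, lactate, isocitrate, fatty acid and glycogen use and of DNA replication in the 6 libraries of time zero, as RPKM on a log axis, 1 gene per place on the x axis. Points are libraries (orange circles glucose, dark blue squares and light blue triangles glycerol of the pH 8.0 and the pH 8.2 course) and black lines are group means; the 3 glycerol symporters C4R6H9, C4R6F4 and C4QVV9 lie higher on glucose while GUT1, beside them, lies lower.

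The 10 genes with the largest increases belonged to no list of carbon use. TMA10, whose product associates with ribosomes, had 81.2 and 114 RPKM on glucose, against 6.53, 10.5, 12.3 and 13.9 RPKM on glycerol (log2 difference 3.09 ± 0.40, adjusted p = 2.6e-05). RGI2, which the authors' table describes as of unknown function and whose name in S. cerevisiae stands for respiratory growth induced, had 192 and 332 RPKM on glucose, against 31.2, 39.9, 32.7 and 40.9 RPKM on glycerol (log2 difference 2.78 ± 0.19, adjusted p = 2.0e-08). AQR1, a multidrug transporter of the plasma membrane, had 600.2 and 892 RPKM on glucose, against 114, 166, 105 and 154 RPKM on glycerol (log2 difference 2.46 ± 0.22, adjusted p = 3.8e-07). In these 3 genes each glucose library was several times the highest glycerol library, and glucose replicate 2 was the higher of both. DOG1, a phosphatase of sugar phosphates that acts on 2-deoxyglucose-6-phosphate, had 1056 and 2066 RPKM on glucose, against 304, 341, 215 and 278 RPKM on glycerol (log2 difference 2.39 ± 0.22, adjusted p = 5.3e-07), which made it the most abundant of the 10.

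A further 4 of the 10 are described only as hypothetical proteins. C4R1B2 had 212 and 276 RPKM on glucose, against 27.1, 37.9, 51.3 and 75.8 RPKM on glycerol. C4R3C3 had 66.0 and 58.7 RPKM on glucose, against 12.9, 15.1, 6.26 and 11.958 RPKM on glycerol. C4R2F6 had 649 and 914 RPKM on glucose, against 155, 164, 176 and 186 RPKM on glycerol. They were 2.41, 2.39 and 2.17 higher on the log2 scale (adjusted p = 3.7e-06, 3.3e-05 and 1.1e-08), and C4R1B2 was also higher in the glycerol libraries of the pH 8.2 course than in those of the pH 8.0 course. C4QXV2 was low, with 7.90 and 8.43 RPKM on glucose, against 1.24, 1.16, 3.30 and 2.37 RPKM on glycerol (log2 difference 1.66 ± 0.31, adjusted p = 9.9e-04), and the added 1 RPKM lowers the log2 difference of so low a gene. CTH1, a CCCH zinc finger protein, whose relatives in S. cerevisiae bring about the decay of messenger RNAs of iron-using proteins, had 77.1 and 130.4 RPKM on glucose, against 28.9, 28.5, 23.6 and 22.011 RPKM on glycerol (log2 difference 1.93 ± 0.27, adjusted p = 5.9e-05). PIC2, a carrier of the mitochondrial inner membrane described as a phosphate importer, had 65.2 and 49.2 RPKM on glucose, against 15.5, 18.2, 16.5 and 16.2 RPKM on glycerol (log2 difference 1.71 ± 0.18, adjusted p = 4.1e-06), here with glucose replicate 1 as the higher library.

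The remaining genes called higher included several transporters. DIP5, a permease of dicarboxylic amino acids, had 51.5 and 53.0 RPKM on glucose, against 22.8, 24.9, 18.5 and 16.8 RPKM on glycerol (log2 difference 1.31 ± 0.13, adjusted p = 2.3e-06). YIL166C, similar to allantoate permeases, had 53.998 and 46.9 RPKM on glucose, against 22.9, 23.8, 13.5 and 16.6 RPKM on glycerol, and MEP2, an ammonium permease, had 4.71 and 9.49 RPKM on glucose, against 3.52, 3.08, 1.43 and 2.04 RPKM on glycerol. With DIP5 these were the only 3 of 14 genes of nitrogen uptake and catabolism that passed as higher, and MEP2 lost the call without glucose replicate 2 (adjusted p = 0.1). In the same list MEP1, the more abundant ammonium permease, was lower, with 232 and 213 RPKM on glucose, against 289.7, 339.9, 269 and 248 RPKM on glycerol (log2 difference -0.36 ± 0.10, adjusted p = 0.016), as was the allantoin permease C4QWV7 (log2 difference -0.51, adjusted p = 0.045), and neither passed without glucose replicate 2 or against the glycerol pH 8.2 course alone. Others were enzymes and regulators: FRD1, soluble fumarate reductase, at a log2 difference of 1.26, MXR1, here peptide methionine sulfoxide reductase, at 1.23, ERG2, C-8 sterol isomerase of ergosterol synthesis, at 1.22, THI4, thiazole synthase of thiamine synthesis, at 1.19, and PDR12, an ATP-binding cassette transporter of the plasma membrane, at 1.21. FRA1, a negative regulator of the iron regulon, had 107 and 109 RPKM on glucose, against 40.1, 54.5, 37.1 and 35.6 RPKM on glycerol (log2 difference 1.36 ± 0.20, adjusted p = 8.5e-05).

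Beside PCK1, JEN1, GUT1, C4R343 and IDP2, given above, the genes with the largest decreases were of unknown function or of other pathways. YMR244W, of unknown function, had 104 and 107 RPKM on glucose, against 455, 415, 363 and 329 RPKM on glycerol (log2 difference -1.87 ± 0.15, adjusted p = 1.4e-07). YOR338W, also of unknown function, had 29.0 and 35.7 RPKM on glucose, against 105, 79.6, 84.3 and 92.7 RPKM on glycerol (log2 difference -1.45 ± 0.30, adjusted p = 0.002). SUR1, a probable catalytic subunit of mannosylinositol phosphorylceramide synthase, which makes complex sphingolipids, had 71.8 and 71.3 RPKM on glucose, against 200.7, 179.8, 159 and 125 RPKM on glycerol (log2 difference -1.18 ± 0.10, adjusted p = 2.9e-07). In all 3 the glucose replicates lay close together and the highest glucose value was well under the lowest on glycerol. C4R6T1, of unknown function, spread widely on glycerol, with 26.7 and 18.5 RPKM on glucose, against 28.4, 94.4, 62.5 and 41.5 RPKM on glycerol, and did not pass without glucose replicate 2 (adjusted p = 0.18). PAS_chr2-2_0070, which has no description in the authors' table, had 24.974 and 18.5 RPKM on glucose, against 42.3, 42.4, 52.8 and 64.0 RPKM on glycerol (log2 difference -1.17 ± 0.12, adjusted p = 2.4e-06). TPO4, a polyamine transporter, and BER1, which holds an SRR1 domain, were called lower at -1.05 and -1.02 on the log2 scale.

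A pair of the lower genes, MCM3 and MCM5, encode subunits of the helicase that is loaded on DNA for replication. MCM3 had 27.8 and 25.3 RPKM on glucose, against 74.0, 62.9, 53.5 and 44.5 RPKM on glycerol (log2 difference -1.09 ± 0.11, adjusted p = 2.5e-06). MCM5 had 14.9 and 12.7 RPKM on glucose, against 37.4, 32.1, 27.1 and 23.8 RPKM on glycerol (log2 difference -1.06 ± 0.10, adjusted p = 1.1e-06). Both were lowest on glucose and higher in the glycerol pH 8.0 course than in the pH 8.2 course. A list of DNA replication and cell cycle genes, put together after these values were seen and including MCM3 and MCM5, held 8 described genes. Of these, 5 passed as lower and 0 as higher, where 12.5% of all genes passed as lower. As MCM3 and MCM5 prompted the list, its count is no separate evidence. The count was 3 against the glycerol pH 8.2 course alone and also fell without glucose replicate 2. CDC6, which loads that helicase, had 20.1 and 17.9 RPKM on glucose, against 42.7, 34.9, 34.5 and 30.0 RPKM on glycerol (log2 difference -0.86 ± 0.12, adjusted p = 5.6e-05). The cyclin genes PCL1 and CLB3 followed at -0.51 and -0.42, while the G1 cyclin CLN3 had a log2 difference of -0.05 (adjusted p = 0.83).

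In 10 genes of iron and copper uptake, 5 passed as higher and 0 as lower, none 2-fold, and the count was 2 without glucose replicate 2 and 3 against the glycerol pH 8.2 course alone. The copper transporter CTR1 had 732 and 901 RPKM on glucose, against 260.4, 350.0, 711 and 548 RPKM on glycerol (log2 difference 0.90 ± 0.23, adjusted p = 0.0085). The ferric and cupric reductase FRE1 had 251 and 287 RPKM on glucose, against 78.0, 119, 239 and 182 RPKM on glycerol (log2 difference 0.92 ± 0.28, adjusted p = 0.023). In both genes the glycerol groups also differed from each other, the pH 8.2 course being higher than the pH 8.0 course by a log2 difference of 1.05 for CTR1 and 1.10 for FRE1, and against the pH 8.2 course alone neither passed (adjusted p = 0.41 and 0.53). FRE3, which reduces iron bound to siderophores, had 24.4 and 20.1 RPKM on glucose, against 13.4, 13.3, 13.4 and 9.18 RPKM on glycerol (log2 difference 0.81 ± 0.14, adjusted p = 5.6e-04), and C4R6L2, described as a low-affinity iron transporter, and C4R7S4, another reductase, followed at 0.74 and 0.51.

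Of 5 carbon regulators 2 passed, both as higher. GCR1, named after an activator of glycolytic genes in S. cerevisiae, had 39.9 and 35.017 RPKM on glucose, against 11.1, 20.3, 31.974 and 34.6 RPKM on glycerol (log2 difference 0.71 ± 0.18, adjusted p = 0.0098), and here too the glycerol groups stood apart (1.09, pH 8.2 course minus pH 8.0 course). NRG1, named after a glucose-dependent repressor, had 252 and 239 RPKM on glucose, against 167, 155, 167 and 163 RPKM on glycerol (log2 difference 0.59 ± 0.16, adjusted p = 0.013). Neither passed without glucose replicate 2 or against the glycerol pH 8.2 course alone, where the list had 0 members past the test. Sterol and heme synthesis had 3 of 5 members higher: ERG1, squalene epoxidase, at 0.61, HEM13, coproporphyrinogen oxidase, at 0.75, and ERG11, lanosterol demethylase, at 0.38; 1 of them passed without glucose replicate 2. ERG2, given above as called higher, was not a member of that list. Its log2 difference was 1.22 against both glycerol groups and 0.85 against the glycerol pH 8.2 course alone. Chaperones and heat shock proteins had 1 of 12 members past the test, as higher, where 9.44% of all genes passed as higher. It was the co-chaperone SIS1, with 485 and 449 RPKM on glucose, against 167, 314, 308 and 294 RPKM on glycerol (log2 difference 0.83 ± 0.19, adjusted p = 0.0052). SIS1 did not pass against the glycerol pH 8.2 course alone (adjusted p = 0.093). Of 3 phosphate uptake genes and 2 mitochondrial ribosomal proteins none passed at the adjusted p.

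**Figure D4:**
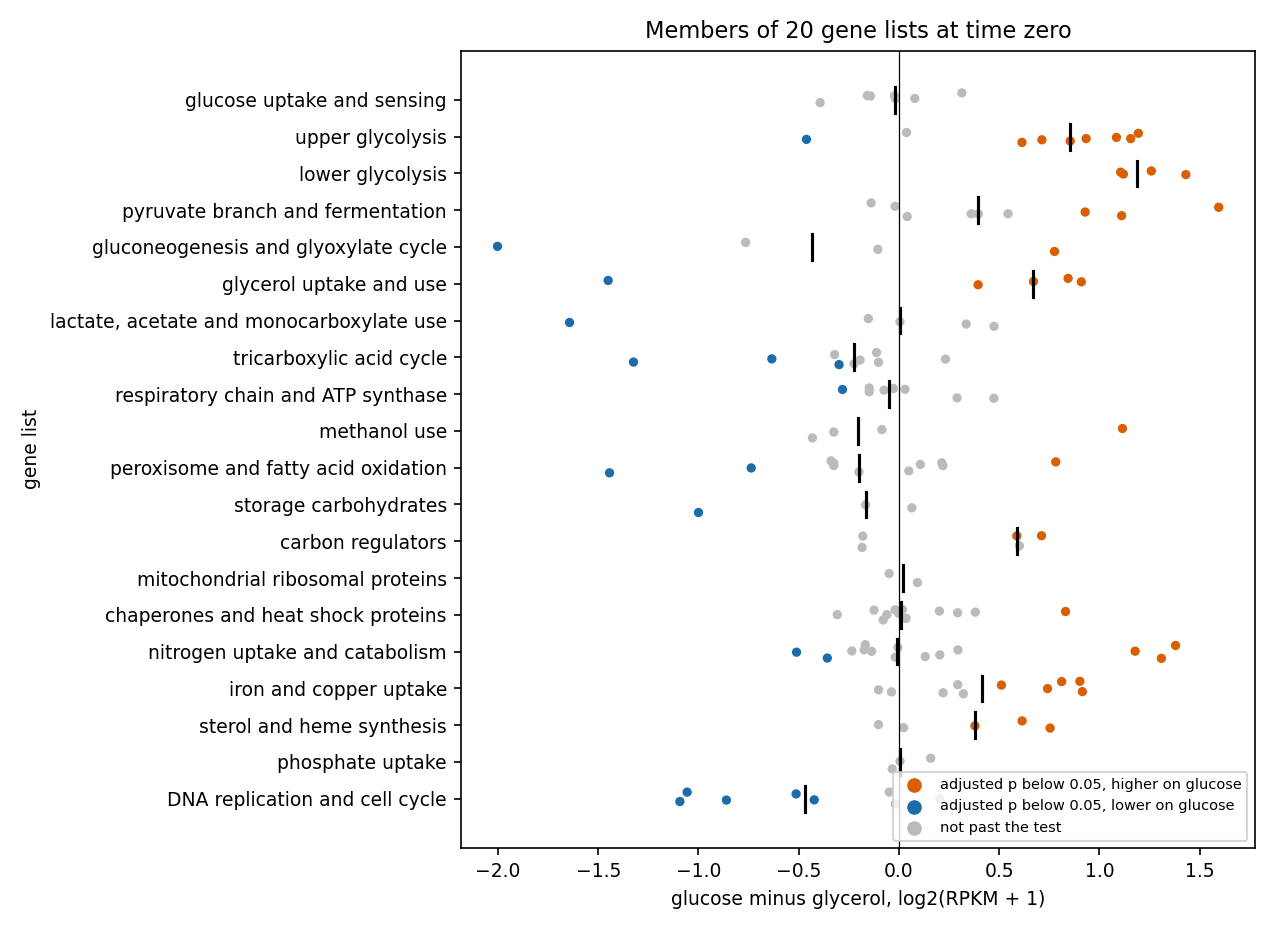
Each row is 1 of 20 gene lists and each point 1 member, placed on the x axis by its difference, glucose minus glycerol, on the log2(RPKM + 1) scale. Orange and blue points passed the adjusted p as higher and as lower on glucose, grey points did not, and black bars are list medians; lower glycolysis has its 4 members above 1, and the lists of glycerol use and of gluconeogenesis have members on both sides of 0.

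The 63 called genes lay on all 4 chromosomes, and none overlapped another gene model. On 3 occasions 2 called genes were direct neighbours (ASM2700v1 coordinates). GUT1 lies on chromosome 4 at 1483780 to 1485645 on the minus strand and PAS_chr4_0784 at 1487012 to 1487992 on the plus strand, so that both point away from a common stretch of 1366 bases. PAS_chr4_0784, which has no description in the authors' table, had 85.9 and 83.0 RPKM on glucose, against 109, 152, 227 and 227 RPKM on glycerol (log2 difference -1.01 ± 0.20, adjusted p = 0.0013), in the same order of groups as GUT1. Its log2 difference was -0.60 against the glycerol pH 8.0 course and -1.41 against the pH 8.2 course, and it did not pass with the 6 libraries of time zero fitted alone as 2 groups (adjusted p = 0.067). YIL166C (chromosome 3, 63929 to 65554, minus strand) and C4R3C3 (65883 to 67502, plus strand) likewise point away from a stretch of 328 bases between them, and both were called higher. AQR1 (chromosome 2, 2256592 to 2258004) and C4R2Z4 (2258244 to 2259077) lie on the minus strand 239 bases apart; C4R2Z4 had 68.0 and 84.6 RPKM on glucose, against 37.5, 34.9, 38.1 and 38.9 RPKM on glycerol, a log2 difference of 1.00 beside 2.46 for AQR1.

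At 15, 30 and 60 min, glucose was compared with glycerol at pH 8.0 of the same time. These libraries were in no group mean of the comparison above, but they entered its low-value filter and its estimate of the spread. By the study's methods each culture was split, and the stressed aliquot was sampled at all 3 times, so the libraries of a course come from shared cultures, which the fit treats as independent. The glycerol group of 15 min holds 4 libraries and the others 2 each. Of the 47 genes higher on glucose at time zero, 28 passed as higher at 15 min, 20 at 30 min and 13 at 60 min, where 9.54, 7.35 and 15.3% of all genes passed as higher; 3, 4 and 1 of them passed as lower. Their median log2 difference was 0.70 at 15 min, 0.57 at 30 min and 0.18 at 60 min, beside -0.04, -0.08 and -0.04 for all genes. Of the 16 genes lower at time zero, 9, 8 and 8 passed as lower at 15, 30 and 60 min, where 16.1, 16.4 and 17% of all genes did, and none passed as higher. Against glycerol at pH 8.2 of the same times, with the same glucose libraries, 29, 22 and 10 of the 47 passed as higher, where 5.2, 4.01 and 13.7% of all genes did, and 1, 4 and 7 passed as lower. Of the 16, 8, 7 and 8 passed as lower there, where 7.47, 7.79 and 18.7% of all genes did, and BER1 passed as higher at 60 min (log2 difference 0.48, adjusted p = 0.027). The genes were chosen on their difference at time zero, and the change of a difference between times was not tested.

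Against glycerol at pH 8.0, 12 of the 47 genes passed as higher at each of the 3 times, as did 3.1% of all genes, among them PGK1, TPI1, ENO1, GLK1 and the GPM1 copy C4R5P4 of glycolysis. C4R1B2 had the largest difference of the 47 at 60 min: it had 165 and 139 RPKM on glucose, against 26.7 and 20.6 RPKM on glycerol (log2 difference 2.64). At 15 min its level had been 40.2 and 33.3 RPKM on glucose, against 7.52, 7.39, 11.6 and 9.69 RPKM on glycerol. DOG1, AQR1 and ERG2 followed at 60 min with 1.41, 1.33 and 0.97, of which ERG2 did not pass against glycerol at pH 8.2 (0.32, adjusted p = 0.12). At none of the 3 times 18 of the 47 passed as higher, beside 79% of all genes, and TMA10, the gene with the largest difference at time zero, was one of them. It had 15.5 and 10.4 RPKM on glucose, against 23.5, 18.9, 7.12 and 11.6 RPKM on glycerol at 15 min and 10.1 and 10.2 RPKM on glucose, against 20.4 and 17.5 RPKM on glycerol at 60 min, so the groups overlapped at 15 min and glucose lay below glycerol at 60 min without passing the test (log2 difference -0.83, adjusted p = 0.17). Against glycerol at pH 8.2 it passed as lower at 60 min (log2 difference -2.36, adjusted p = 8.4e-04). PIC2 was lower on glucose at 15 min, with 9.27 and 8.62 RPKM on glucose, against 19.6, 18.004, 21.7 and 22.5 RPKM on glycerol (log2 difference -1.11, adjusted p = 3.0e-04). PDR12, PTP2, a tyrosine phosphatase, and C4QWY3, described as an exporter of ammonia, were at -0.50, -0.44 and -0.42 at 60 min, of which PDR12 passed as lower; against glycerol at pH 8.2 PTP2 passed (adjusted p = 0.012) and PDR12 did not (adjusted p = 0.13).

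JEN1, GUT1 and SGA1 were the 3 of the 16 lower genes that passed as lower at each time, as did 6.02% of all genes, and 4 of the 16 passed at none, beside 70.2%. JEN1 had 5.89 and 4.21 RPKM on glucose, against 41.3 and 39.2 RPKM on glycerol at 60 min (log2 difference -2.78, adjusted p = 5.0e-04), beside -1.11 at time zero against the same course. GUT1 had 63.1 and 54.1 RPKM on glucose, against 182 and 197 RPKM on glycerol at 60 min (-1.68), and its neighbour PAS_chr4_0784 was at -1.22. SGA1 and IDP2 followed at -1.39 and -0.998. MCM3 and MCM5, at 0.01 and -0.04, and YOR338W, BER1, TPO4 and C4R6T1, at 0.41, 0.26, 0.08 and 0.03, did not pass at 60 min. PCK1 was at -0.83 at 60 min (adjusted p = 0.037), having not passed at 15 or 30 min.

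**Figure D5:**
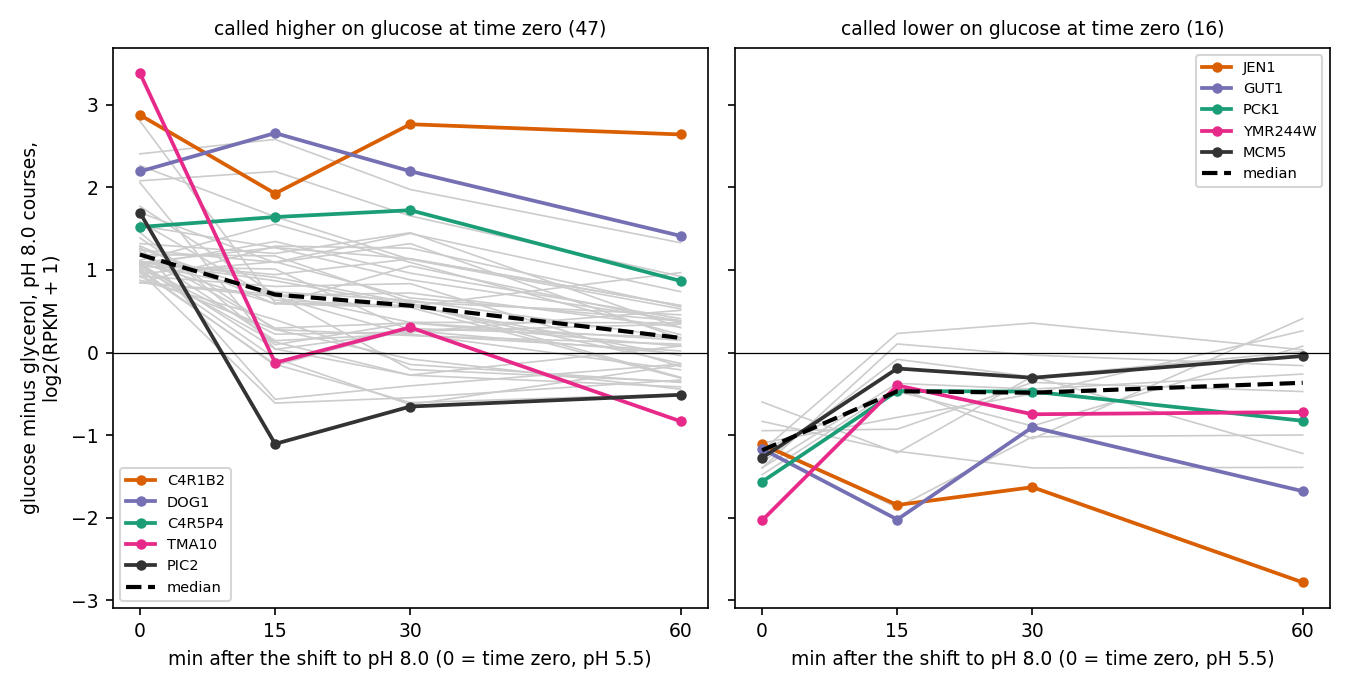
Difference, glucose minus glycerol, both in the courses shifted to pH 8.0, on the log2(RPKM + 1) scale (y axis) at 0, 15, 30 and 60 min (x axis); time zero is at pH 5.5 and uses the glycerol libraries of the pH 8.0 course alone. Left, the 47 genes called higher on glucose at time zero, and right, the 16 called lower. In each panel 5 genes are in colour, the others in grey and the median dashed. C4R1B2 is at 1.93 at 15 min and at 2.64 at 60 min. JEN1 reaches -2.78 at 60 min, while TMA10 is at -0.12 by 15 min.

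With 2 glucose libraries, a single one weighs on many calls: without glucose replicate 2 there were 32 genes called higher and 8 lower, of which 30 and 8 were among the 63, and without replicate 1 there were 52 and 18. With the 6 libraries of time zero fitted alone, 48 and 17 genes were called with 3 group means and 44 and 14 with 2. Against each glycerol group on its own, 60 of the 63 passed the adjusted p, and 32 of the 47 and 7 of the 16 also kept the 2-fold call.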

How the data were processed

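Of 26 RNA-seq libraries, the 6 of time zero at pH 5.5 make up the main comparison. The later libraries are repeated samples of split cultures and enter the estimate of the spread as if independent. According to the methods, the authors made non-directional poly(A) libraries, mapped single reads with Bowtie2 (local, sensitive; version not stated) to the GS115 assembly, counted them over genes in SeqMonk and deposited RPKM values, so no count test was run here. The second deposited table served for names and descriptions only. Its columns of fold changes and p-values, from the authors' DESeq2 comparisons, were left unused.

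RPKM + 1 was taken to log2. Genes with at least 1 RPKM in 2 libraries were fitted with limma 3.58.1 (R 4.3.3), with 12 group means over 26 libraries, 14 residual degrees of freedom and an intensity trend, and Benjamini-Hochberg adjustment over 5034 genes. The method was tested on simulated data. The values are whole reads to within rounding, and low RPKM values rest on few reads and are the least precise. Reads were counted without strand, so overlapping genes cannot be told apart.

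The comparison, the gene lists and the tests were chosen with earlier results of these data known. Lists were built from words in the descriptions, and 20 of them had members; some members were added or removed, and the list of DNA replication genes was made, after values were seen. Named were the 10 called genes with the largest difference in each direction, called list members, abundant carbon-use members that were not called, and called genes with the largest and smallest differences at 60 min. Other genes were chosen after their values were seen. Alternatives were the added constant, the low-value filter, the fitted libraries, each glycerol group alone, median-ratio scaling, a replicate block and leaving out each library; counts of list members under some of these were added after the data were seen.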

Additional observations from a re-analysis of the deposited data

Results flagged for a closer look

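Among 114 named genes, 3 had 1 of the 4 glycerol libraries far from the others by Dixon's test. For values from a single population chance does this in about 1 group in 20, so 3 of 114 is no more than that share. The 4 libraries come from both glycerol courses, which the test does not take into account. PFK26 had its highest level, 15.96 RPKM, in replicate 1 of the pH 8.0 course. SIS1 had its lowest level, 167 RPKM, in that same library. FRE3 had its lowest level, 9.18 RPKM, in replicate 2 of the pH 8.2 course.

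Several genes that were higher in both glucose libraries than in every glycerol library at time zero lay below every glycerol library after the shift to pH 8.0, and this difference between times was not tested. The mitochondrial carrier PIC2 had a log2 difference of -1.11 at 15 min and -0.65 at 30 min. The membrane transporter PDR12 had -0.61 at 30 min and -0.50 at 60 min. PRM10, a pheromone-regulated protein, had -0.61 at 15 min and -0.55 at 30 min. SKO1, a gene named after a transcription repressor of S. cerevisiae, had -0.57 at 15 min. C4R2A9, described as a hypothetical protein, had -0.63 at 30 min.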

How the results depend on the processing

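Over 16 alternative settings for the 63 called genes, 0 of 1008 values changed sign and 23, in 10 genes, no longer passed the adjusted p. Adding 5 RPKM in place of 1 left 10 genes called lower and 32 called higher. Leaving out each library in turn gave 32 to 52 genes called higher and 8 to 18 called lower, with both lowest counts without glucose replicate 2. At the adjusted p alone, counts moved much more: 475 genes higher and 630 lower became 197 and 131 without glucose replicate 2, 250 and 481 without glucose replicate 1, 209 and 136 with the 6 libraries of time zero fitted alone as 2 groups (659 and 775 as 3 groups), 235 and 184 against the glycerol pH 8.2 course, and 766 and 943 against the pH 8.0 course. The fit as 2 groups counts the difference between both glycerol groups as part of the spread, which the fit as 3 groups leaves out. Why the counts moved was not tested. At time zero, same-numbered libraries of different groups did not deviate together (correlations -0.0808, 0.0917 and 0.111). Libraries of the same course, taken at different times, were not compared in this way. With the replicate block, 47 genes were called higher and 16 lower, and 507 and 624 passed the adjusted p. This block joins same-numbered libraries of all groups, so it does not account for the cultures shared within a course.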
